A study of Mus musculus with 38 samples.

Results

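The genes described here are the 3 iodothyronine deiodinases *Dio1*, *Dio2* and *Dio3*, the thyroid hormone receptors *Thra* and *Thrb*, and *Slc16a10*, a carrier of thyroid hormone. They were taken by gene symbol from the annotation of the array, with the probe set of highest mean standing for a gene, and each of the 6 genes had 1 probe set that carried its symbol alone. They are 6 of 19938 named genes, and 6 of 35556 probe sets, measured in 38 mouse thyroids.

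Deiodinases are membrane selenoproteins that remove iodine from thyroid hormone. Type 1 and type 2 deiodinase (*Dio1*, *Dio2*) convert thyroxine, the main product of the gland, into the active hormone triiodothyronine, whereas type 3 deiodinase (*Dio3*) inactivates both. Triiodothyronine acts in the nucleus on the receptors TRα (*Thra*) and TRβ (*Thrb*), which bind DNA mostly as partners of retinoid X receptors. *Slc16a10* encodes MCT10, a membrane carrier of aromatic amino acids that also carries thyroid hormone.

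The study asked which genes change early in thyroids that express the human *BRAF*V600E cDNA, before a carcinoma is seen. The cDNA is driven in the follicular cells of FVB/N mice by the bovine thyroglobulin promoter, in lines named tg1, tg2 and tg3 (most *BRAF*(+) mice on the arrays were of tg3), and a mouse was called *BRAF*(+) when its thyroid held transgene RNA. The *BRAF*(+) groups were 10 papillary carcinomas (PTC; 8 females and 2 males, 6 to 21 months of age), 10 borderline lesions (BL; 8 females and 2 males, 4 to 21 months), 4 benign hyperplastic lesions (BHL; 3 females and 1 male, 4 to 11 months) and 5 asymptomatic thyroids (AT; 4 females and 1 male, 7 to 11 months). The *BRAF*(-) groups were 4 BHL (3 females and 1 male, 6 to 24 months) and 5 AT (3 females and 2 males, 4 to 12 months). *BRAF*(-) mice were non-transgenic except 1 mouse of line tg1, which carried the transgene without its RNA. The study places it among the BHL older than 12 months, and *BRAF*(-) BHL mouse M_764 (24 months) is the only one of that age. The labels do not give the line of each mouse, and no fit held it as a term. By the study's methods all *BRAF*(+) BHL were of tg3, the youngest PTCs of tg2 and the older ones of tg3. BL were mostly of tg3, with tg2 mice in the youngest and the oldest age class, and the *BRAF*(-) BHL came from all the lines. So line went with age in PTC and partly with group. For PTC and BL, the study's counts in the older age classes differ from those by the ages in the labels. Each array held RNA of a piece of the gland with fragments of both lobes, and the lesion was read on the rest, so the piece on the array was not itself graded.

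*Tg*, the thyroglobulin gene and the defining marker of thyroid, had a log2 signal between 13.30 and 13.74 in all 38 mice. This is near the highest value on any array (14.18), and whether the arrays resolve differences at that level was not tested. *Tg* did not pass the test in *BRAF*(+) against *BRAF*(-) non-malignant thyroids (log2 fold change -0.07, adjusted p = 0.534) or in PTC against *BRAF*(-) AT (-0.11, adjusted p = 0.133). Of 9 measured follicular genes, *Tg* among them, 5 fell in PTC, 1 in BL and 2 in *BRAF*(+) BHL. In non-malignant *BRAF*(+) thyroids 2 fell, and 0 rose in these comparisons. The shares of all probe sets that fell were 9.01% in PTC, 5.41% in BL, 3.64% in *BRAF*(+) BHL and 1.91% in non-malignant thyroids. The count of 1 gene in BL is near its share. Genes of other tissues varied more. The mean signal of 12 skeletal muscle genes was above 7 in 8 mice (PTC mice M_1002, M_348, M_358 and M_359, BL mice M_527 and M_530, *BRAF*(-) BHL mouse M_764 and *BRAF*(-) AT mouse M_940), where it lay between 8.25 and 10.76, and it was at most 6.61 in the other 30 mice. Markers of fat were lower in *BRAF*(+) lesions: the mean of 5 brown adipocyte genes ranged from 5.27 to 8.12 in PTC, 5.72 to 9.28 in BL, 5.94 to 9.51 in *BRAF*(+) BHL and 7.73 to 8.97 in *BRAF*(+) AT, against 8.20 to 10.10 in *BRAF*(-) BHL and 7.74 to 9.95 in *BRAF*(-) AT. The mean of 8 white adipocyte genes ranged from 6.28 to 9.27 in PTC, 7.34 to 8.81 in BL, 7.65 to 8.89 in *BRAF*(+) BHL and 8.17 to 9.22 in *BRAF*(+) AT, against 8.79 to 9.87 in *BRAF*(-) BHL and 8.98 to 9.71 in *BRAF*(-) AT. In tissue pieces of this kind, fewer cells of a type and less RNA per cell cannot be told apart.

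*Dio1* lies on the minus strand of chromosome 4 (GRCm38.p6, 107291465 to 107307168), and *Dio2* and *Dio3* lie on chromosome 12 (minus strand, 90724552 to 90739038, and plus strand, 110279230 to 110281097). *Thra* is on chromosome 11 (98740776 to 98769006), *Thrb* on the plus strand of chromosome 14 (17659225 to 18040097) and *Slc16a10* on the minus strand of chromosome 10 (40033532 to 40142270). The 300 bases around the RefSeq starts of *Dio1*, *Slc16a10* and *Dio2* (250 before and 50 after the start, from GRCm38.p6) are shown because *Dio1* and *Slc16a10* had the largest decreases of the 6 genes in PTC, BL and *BRAF*(+) BHL, and *Dio2*, the other activating deiodinase, did not pass the test in any comparison. Capitals mark exact matches, on either strand, to the cAMP response element TGACGTCA, the nuclear receptor hexamer AGGTCA, the TATA box TATAAA or the GC box GGGCGG.
*Dio1* promoter (chr4:107307119-107307418, minus strand): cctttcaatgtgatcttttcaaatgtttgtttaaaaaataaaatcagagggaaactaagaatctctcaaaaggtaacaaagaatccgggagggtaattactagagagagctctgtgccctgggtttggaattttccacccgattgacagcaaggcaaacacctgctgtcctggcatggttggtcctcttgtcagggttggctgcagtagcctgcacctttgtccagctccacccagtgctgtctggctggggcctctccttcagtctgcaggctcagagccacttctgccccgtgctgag
*Slc16a10* promoter (chr10:40142205-40142504, minus strand): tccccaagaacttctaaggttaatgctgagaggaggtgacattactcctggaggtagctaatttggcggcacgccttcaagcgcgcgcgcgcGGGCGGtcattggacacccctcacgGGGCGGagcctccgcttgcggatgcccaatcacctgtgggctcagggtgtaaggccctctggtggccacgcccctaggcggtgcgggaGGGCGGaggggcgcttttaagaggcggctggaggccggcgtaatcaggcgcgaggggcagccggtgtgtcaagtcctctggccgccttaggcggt
*Dio2* promoter (chr12:90738989-90739288, minus strand): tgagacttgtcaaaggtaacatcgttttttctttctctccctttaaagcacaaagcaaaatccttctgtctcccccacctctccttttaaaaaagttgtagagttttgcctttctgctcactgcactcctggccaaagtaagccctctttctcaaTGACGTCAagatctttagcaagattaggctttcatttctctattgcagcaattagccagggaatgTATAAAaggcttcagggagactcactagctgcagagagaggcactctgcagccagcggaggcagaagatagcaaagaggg
The *Dio2* window held TGACGTCA at -95 and TATAAA at -30 from the start. Among 32817 promoters of the same length, 1.79% held TGACGTCA, 16.3% AGGTCA, 13.6% TATAAA and 35.6% GGGCGG. The *Slc16a10* window held GGGCGG 3 times, at -158, -133 and -45, and was rich in G and C (65.3%, against a median of 52.7% over all promoters). The *Dio1* window held none of the 4 motifs and 49.7% G and C. The *Dio3* promoter held TATAAA at -31 and 4 GC boxes, and 1 of the *Thrb* promoters held AGGTCA at -184 with 3 GC boxes. A match is a stretch of letters, not a bound site.

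*BRAF*(+) non-malignant thyroids had less *Dio1*, *Thrb* and *Slc16a10* RNA than *BRAF*(-) ones. In a linear model over 18 mice, with terms for *BRAF* status, lesion and sex, *Dio1* was 3.05-fold lower (log2 fold change -1.61, SE 0.38, adjusted p = 0.0231), *Slc16a10* 1.70-fold lower (-0.76, SE 0.18, adjusted p = 0.0233) and *Thrb* 1.52-fold lower (-0.60, SE 0.13, adjusted p = 0.0145). *Thra* had a log2 fold change of -0.35 and did not pass the test (SE 0.11, adjusted p = 0.0716), and neither did *Dio2* (0.12, SE 0.21, adjusted p = 0.846) or *Dio3* (0.14, SE 0.11, adjusted p = 0.615). Of the 6 genes, 3 fell and 0 rose, where 4.1% of all probe sets passed the test and 1.91% fell. The median log2 fold change of the 6 genes was -0.48, and that of all probe sets 0.02. White adipocyte genes fell in the same comparison (4 of 8), as did 1 of 5 brown adipocyte and 1 of 12 skeletal muscle genes. With the muscle and white adipocyte means as covariates the log2 fold changes were -0.43 for *Dio1* (adjusted p = 0.891), -0.23 for *Slc16a10* (adjusted p = 0.855) and -0.74 for *Thrb* (adjusted p = 0.229), and 23 probe sets passed the test instead of 1458. Without the mice of a muscle mean above 7 they were -1.44 (adjusted p = 0.0772), -0.79 (adjusted p = 0.0549) and -0.66 (adjusted p = 0.0163).

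**Figure D1:**
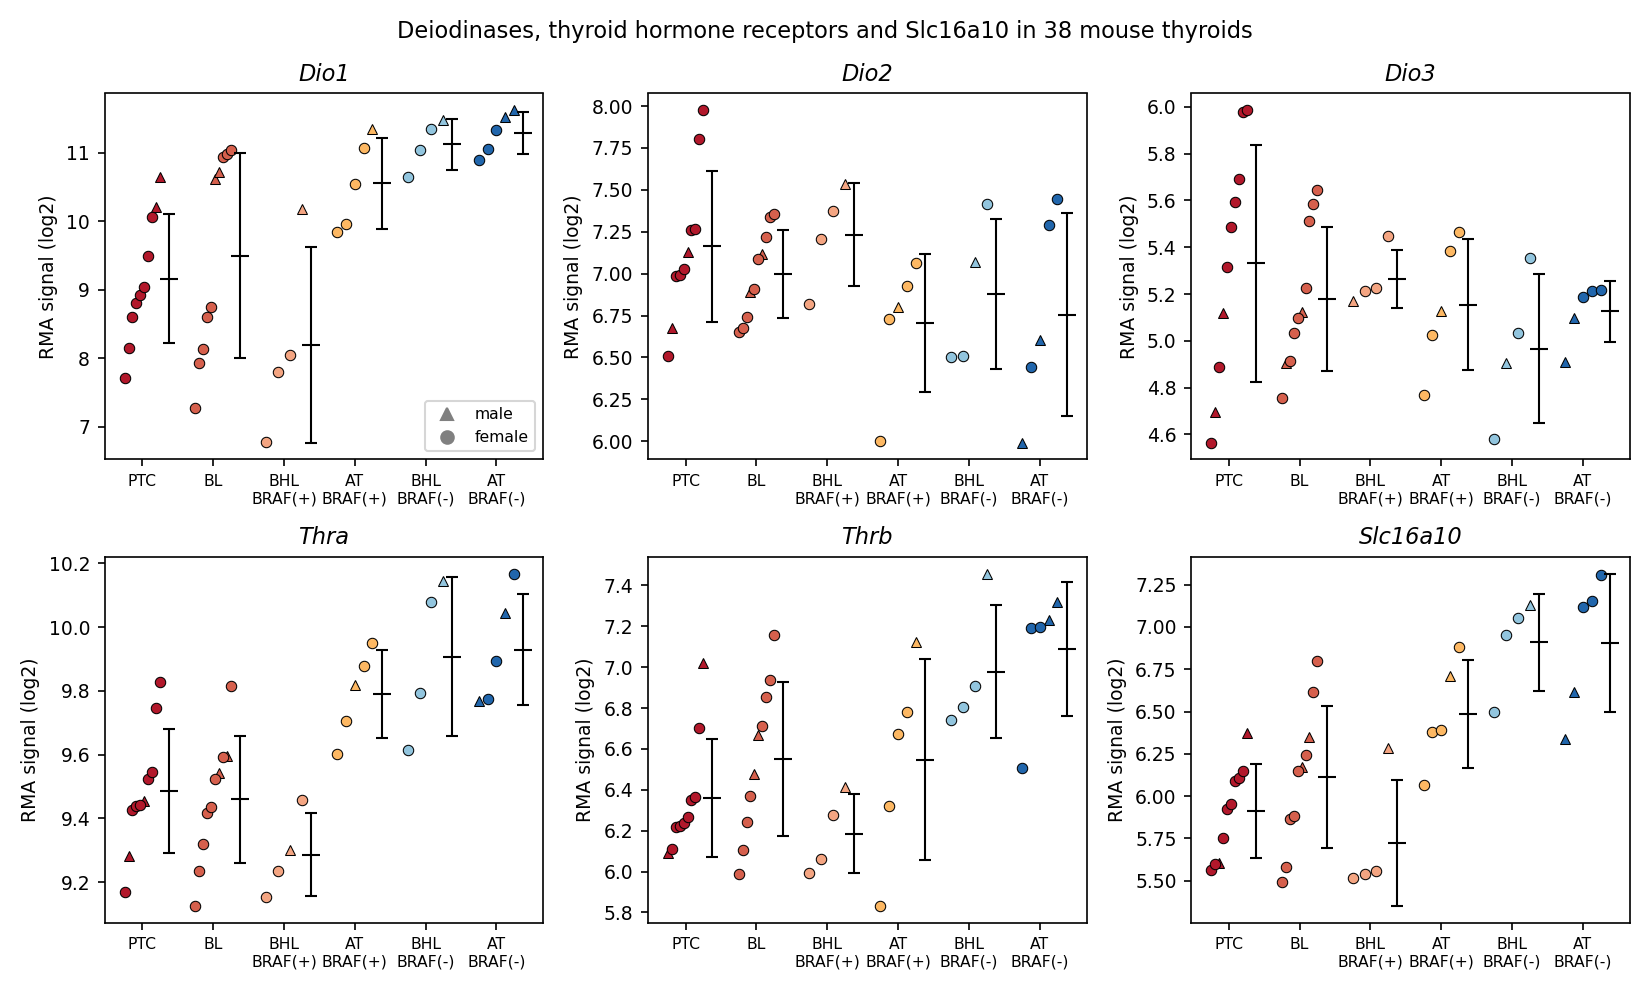
RMA signal (log2, vertical axes) of the 6 genes in PTC, BL, *BRAF*(+) BHL, *BRAF*(+) AT, *BRAF*(-) BHL and *BRAF*(-) AT. Triangles are males, circles females, and the horizontal bars give group means with SD; *Dio1* averages 8.20 in *BRAF*(+) BHL and 11.13 in *BRAF*(-) BHL, whereas the groups of *Dio2* and *Dio3* overlap throughout.

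*Dio1*, which acts in thyroid, liver and kidney, varied most among the 6 genes. Its log2 signal had a lowest value of 7.71, a median of 8.99 and a highest value of 10.65 in PTC, and 7.27, 9.69 and 11.05 in BL. The *BRAF*(+) BHL mice had 6.77, 7.80, 8.05 and 10.18 and the *BRAF*(+) AT mice 9.85, 9.96, 10.55, 11.08 and 11.35, against 10.65, 11.04, 11.35 and 11.49 in *BRAF*(-) BHL and 10.90, 11.06, 11.33, 11.52 and 11.62 in *BRAF*(-) AT. The *BRAF*(-) mice lay close together, and 22 of 29 *BRAF*(+) mice lay below all 9 of them. The 7 others were the PTC mouse at 10.65, 4 BL mice at 10.72, 10.94, 10.99 and 11.05 and the *BRAF*(+) AT mice at 11.08 and 11.35. All 4 *BRAF*(+) BHL lay below all *BRAF*(-) BHL, and all 10 PTCs below all *BRAF*(-) AT. In BL, 5 mice lay between 7.27 and 8.74 and the other 5 between 10.63 and 11.05, with none in between.

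Within the hyperplastic lesions, *Dio1* was 7.61-fold lower in *BRAF*(+) than in *BRAF*(-) mice (8.20 ± 1.43 and 11.13 ± 0.37, SD, n = 4 each; log2 fold change -2.93, SE 0.61, adjusted p = 0.00262). *Slc16a10* was 2.27-fold lower (-1.19, SE 0.24, adjusted p = 0.00226), *Thrb* 1.73-fold lower (-0.79, SE 0.22, adjusted p = 0.0229) and *Thra* 1.54-fold lower (-0.62, SE 0.14, adjusted p = 0.00371). These were 4 of the 6 genes, where 6.62% of all probe sets passed the test and 3.64% fell. The *Thrb* call was lost without *BRAF*(+) BHL mouse M_942 (adjusted p = 0.0543) or M_943 (adjusted p = 0.0655), or without *BRAF*(-) BHL mouse M_701 (adjusted p = 0.0841). In the same contrast 4 of 5 brown adipocyte genes fell, among them the uncoupling protein gene *Ucp1* (log2 fold change -3.96), as did 2 of 8 white adipocyte genes. The brown adipocyte mean was 5.94, 6.03 and 6.22 in *BRAF*(+) BHL mice M_942, M_943 and M_997 and 9.51 in mouse M_958, whose *Dio1* and *Slc16a10* signals were the highest of the group. With the muscle and white adipocyte means as covariates, *Dio1* kept its call (-2.91, adjusted p = 0.0351), whereas *Thra* (-0.51, adjusted p = 0.0939), *Thrb* (-0.58, adjusted p = 0.279) and *Slc16a10* (-0.71, adjusted p = 0.15) did not. No fit held the brown adipocyte mean as a covariate, and its part in these results was not tested.

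In asymptomatic thyroids 0 of the 6 genes passed the test between *BRAF*(+) and *BRAF*(-) mice, where 0.256% of all probe sets did and 3438 had an unadjusted p under 0.05. The log2 fold changes were -0.47 for *Dio1* (95% confidence interval -1.60 to 0.65), -0.48 for *Thrb* (-0.88 to -0.07, adjusted p = 0.401), -0.40 for *Slc16a10* (-0.85 to 0.04) and -0.13 for *Thra* (-0.38 to 0.12). The difference in *BRAF* effect between BHL and AT was itself tested. For *Dio1* the effect in BHL minus that in AT was -2.41 (SE 0.52), which did not pass the test over all probe sets (adjusted p = 0.168, unadjusted p = 0.000249). It passed over the 4388 probe sets that meet the study's filter on flat signals (adjusted p = 0.0452) and without *BRAF*(+) BHL mouse M_958 (-2.83, adjusted p = 0.00531). None of the other 5 genes passed, and 10 of all probe sets did (0.0281%).

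The lesions were set against *BRAF*(-) AT in a model of the 6 groups and sex over all 38 mice. In PTC *Dio1* was 3.65-fold lower (9.17 ± 0.93, n = 10, and 11.29 ± 0.30, n = 5; log2 fold change -1.87, SE 0.48, adjusted p = 0.00632) and *Slc16a10* 1.97-fold lower (-0.98, SE 0.19, adjusted p = 0.000548). The receptors *Thrb* (-0.67, SE 0.17, adjusted p = 0.00679) and *Thra* (-0.44, SE 0.11, adjusted p = 0.00393) fell as well. *Dio2* had a log2 fold change of 0.38 (SE 0.22, adjusted p = 0.229) and *Dio3* of 0.16 (SE 0.18, adjusted p = 0.570), and neither passed. The 4 genes that fell compare with 18.8% of all probe sets that passed the test and 9.01% that fell. All 5 brown and 6 of 8 white adipocyte genes fell in PTC. The *Dio1* call was lost without the mice of a muscle mean above 7 (-1.55, adjusted p = 0.0779), and with the muscle and white adipocyte means as covariates *Dio1* (-1.71, adjusted p = 0.0363) and *Slc16a10* (-0.65, adjusted p = 0.0222) kept their calls and *Thra* (-0.34, adjusted p = 0.0542) and *Thrb* (-0.49, adjusted p = 0.0861) did not.

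In BL the decreases were of like size and 3 genes passed, against 11.5% of all probe sets, with 5.41% lower. *Dio1* was 2.89-fold lower (9.50 ± 1.49, n = 10, and 11.29 ± 0.30, n = 5; log2 fold change -1.53, SE 0.48, adjusted p = 0.0343), *Slc16a10* 1.71-fold lower (-0.77, SE 0.19, adjusted p = 0.00839) and *Thra* 1.38-fold lower (-0.46, SE 0.11, adjusted p = 0.00487). *Thrb* had a log2 fold change of -0.48 and did not pass (SE 0.17, adjusted p = 0.0675). PTC and BL share their 5 *BRAF*(-) AT mice, so these are not independent. In BL 1 of 5 brown and 5 of 8 white adipocyte genes fell. With the muscle and white adipocyte means as covariates the calls of *Dio1* (-1.45, adjusted p = 0.112), *Thra* (-0.37, adjusted p = 0.0632) and *Slc16a10* (-0.43, adjusted p = 0.169) were lost. The *Dio1* call in BL was lost in 7 of 15 fits that left out 1 mouse, and *Thrb* gained one in 4. Set against BL directly, PTC differed in 0 of the 6 genes and in 0 of all probe sets (0%; 774 had an unadjusted p under 0.05), and the interval for *Dio1* ran from -1.12 to 0.45.

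**Figure D2:**
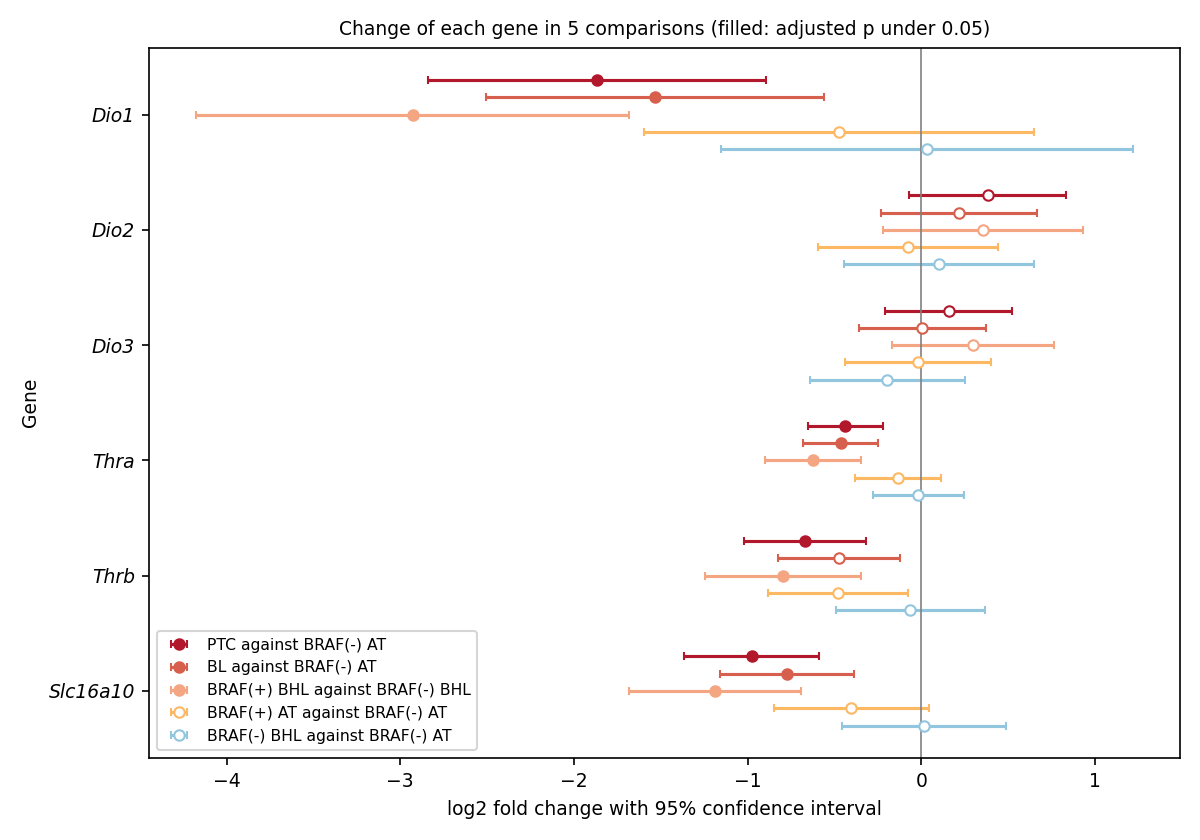
Log2 fold change with its 95% confidence interval (horizontal axis) of each gene (rows) in PTC, BL and *BRAF*(+) AT against *BRAF*(-) AT, in *BRAF*(+) against *BRAF*(-) BHL and in *BRAF*(-) BHL against *BRAF*(-) AT. Filled points passed the test at an adjusted p under 0.05; *Dio1* runs from -2.93 in *BRAF*(+) BHL to 0.03 in *BRAF*(-) BHL, and the intervals of *Dio2* and *Dio3* hold 0 in all 5 comparisons.

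Against *BRAF*(+) AT, *Dio1* (-1.39, SE 0.47, adjusted p = 0.0437), *Thra* (-0.31, SE 0.11, adjusted p = 0.0447) and *Slc16a10* (-0.57, SE 0.19, adjusted p = 0.0373) were lower in PTC, where 14.9% of all probe sets passed and 6.44% fell. These calls were lost in 11, 12 and 8 of 15 fits that left out 1 mouse. Hyperplasia without transgene RNA was not accompanied by a detected difference. *BRAF*(-) BHL against *BRAF*(-) AT had 0 of the 6 genes and 0 of all probe sets (0%) past the test by limma. An unadjusted p under 0.05 was found for 1563 probe sets. The intervals ran from -1.15 to 1.22 for *Dio1* and from -0.46 to 0.49 for *Slc16a10*. They rest on a spread pooled over all 6 groups (SE 0.58 for *Dio1*). With these groups alone in the fit, the *Dio1* change was -0.088 (SE 0.16). Any difference among the 6 groups was found for *Slc16a10*, *Thra*, *Dio1* and *Thrb* (moderated F test, adjusted p = 0.000154, 0.000305, 0.000660 and 0.00858), but not for *Dio2* (adjusted p = 0.386) or *Dio3* (adjusted p = 0.714), where 18.1% of all probe sets passed.

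*Dio2*, the deiodinase of brown fat and pituitary, did not pass the test in any comparison. Its log2 signal had a lowest value of 6.51, a median of 7.08 and a highest value of 7.98 in PTC, and 6.65, 7.00 and 7.35 in BL. The *BRAF*(+) BHL mice had 6.82, 7.20, 7.37 and 7.53 and the *BRAF*(+) AT mice 6.00, 6.73, 6.80, 6.93 and 7.06, against 6.51, 6.51, 7.07 and 7.42 in *BRAF*(-) BHL and 5.99, 6.44, 6.61, 7.29 and 7.45 in *BRAF*(-) AT. Every group overlapped every other, and 3 of 29 *BRAF*(+) mice lay above all *BRAF*(-) mice. The interval of the *BRAF* difference in non-malignant thyroids ran from -0.31 to 0.56. In PTC against *BRAF*(+) AT the interval lay above 0 (0.01 to 0.91, log2 fold change 0.46). Its adjusted p by limma was 0.145. By mean signal *BRAF*(+) BHL (7.23) and PTC (7.16) were highest, BL (7.00) and *BRAF*(-) BHL (6.88) came next. The lowest means were those of *BRAF*(-) AT (6.76) and *BRAF*(+) AT (6.70).

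*Dio3*, the inactivating enzyme, had a lowest signal of 4.56, a median of 5.40 and a highest signal of 5.99 in PTC, and 4.76, 5.11 and 5.64 in BL. The *BRAF*(+) BHL mice had 5.17, 5.21, 5.22 and 5.45 and the *BRAF*(+) AT mice 4.77, 5.03, 5.13, 5.38 and 5.47, against 4.58, 4.90, 5.03 and 5.35 in *BRAF*(-) BHL and 4.91, 5.10, 5.19, 5.21 and 5.22 in *BRAF*(-) AT. PTC spread to both sides of the *BRAF*(-) AT mice, with 6 mice above and 3 below all 5 of them.

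*Dio3* is the last gene of an imprinted region in which some genes are read from the paternal chromosome, as *Dlk1*, *Rtl1* and *Dio3* are, and others from the maternal one, as the noncoding RNAs *Meg3* and *Rian* are. *Dlk1*, which encodes a membrane protein related to Notch ligands, starts 826.745 kb before *Dio3*. It rose in non-malignant *BRAF*(+) thyroids (log2 fold change 3.31, SE 0.30, adjusted p = 8.77e-06), and 29 of 29 *BRAF*(+) mice lay above all 9 *BRAF*(-) mice (8.01 to 11.98 and 6.20 to 6.90). *Meg3* (2.11, SE 0.31, adjusted p = 0.000913) and *Rian* (1.18, SE 0.23, adjusted p = 0.00630), which start 738.234 and 675.285 kb before *Dio3*, rose too, with 28 and 27 of 29 *BRAF*(+) mice above all *BRAF*(-) mice. In PTC the log2 fold changes against *BRAF*(-) AT were 3.41 for *Dlk1*, 2.82 for *Meg3* and 1.81 for *Rian*, all past the test. *Rtl1* did not pass in any of these comparisons (0.18 in non-malignant thyroids, adjusted p = 0.418), and *Mirg* was not analysed here. So 3 of 4 measured genes of the region rose in both comparisons (2.19% of all probe sets rose in non-malignant thyroids and 9.8% in PTC). *Dio3*, at its far end, had log2 fold changes of 0.14 and 0.16. The signals of *Dio3* (4.56 to 5.99) and *Rtl1* (4.55 to 5.73) lay below the median of every array (6.00 or more) in all mice. *Rian*, which rose, ranged from 3.94 to 7.38. Whether the arrays would show a change of *Dio3* or *Rtl1* at that low level was not tested.

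**Figure D3:**
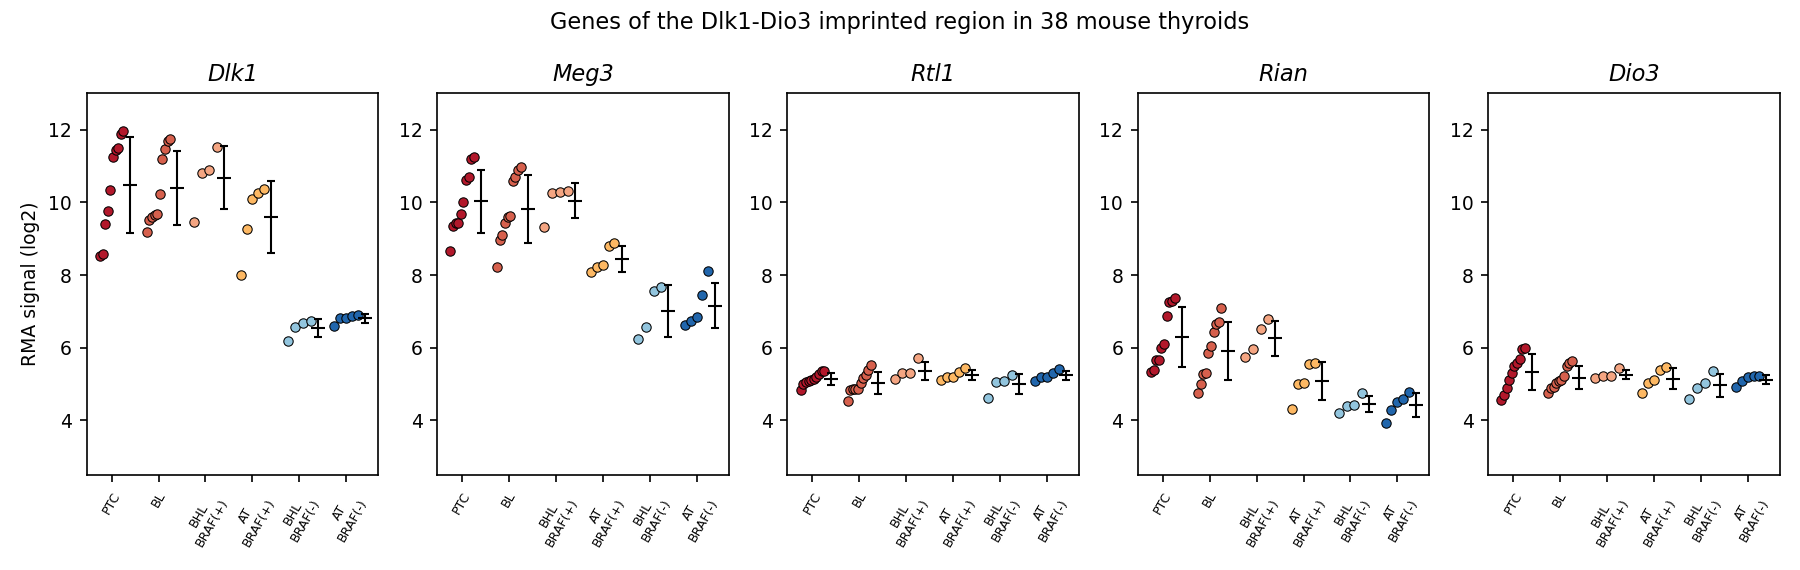
RMA signal (log2, vertical axis, 1 scale for all panels) of *Dlk1*, *Meg3*, *Rtl1*, *Rian* and *Dio3* in the 6 groups, from left to right PTC, BL, *BRAF*(+) BHL, *BRAF*(+) AT, *BRAF*(-) BHL and *BRAF*(-) AT. Each point is a mouse and each bar a group mean with its SD; *Dlk1* averages 10.68 in *BRAF*(+) BHL and 6.55 in *BRAF*(-) BHL, *Dio3* 5.26 and 4.97.

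Of the receptors, *Thra* had a lowest log2 signal of 9.17, a median of 9.45 and a highest signal of 9.83 in PTC, and 9.12, 9.48 and 9.82 in BL. The *BRAF*(+) BHL mice had 9.15, 9.23, 9.30 and 9.46 and the *BRAF*(+) AT mice 9.60, 9.71, 9.82, 9.88 and 9.95, against 9.61, 9.79, 10.08 and 10.14 in *BRAF*(-) BHL and 9.77, 9.78, 9.89, 10.04 and 10.17 in *BRAF*(-) AT. The spread of *Thra* was small, and 9 of 10 PTCs, 9 of 10 BL and all 4 *BRAF*(+) BHL lay below all mice of their *BRAF*(-) group. *Nr1d1*, a circadian repressor gene whose end overlaps that of *Thra* by 1075 bases, did not pass the test (0.01 in non-malignant thyroids, adjusted p = 0.991; -0.25 in PTC, adjusted p = 0.402).

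*Thrb* had a lowest log2 signal of 6.09, a median of 6.25 and a highest signal of 7.02 in PTC, and 5.99, 6.57 and 7.16 in BL. The *BRAF*(+) BHL mice had 5.99, 6.06, 6.28 and 6.41 and the *BRAF*(+) AT mice 5.83, 6.32, 6.67, 6.78 and 7.12, against 6.74, 6.81, 6.91 and 7.46 in *BRAF*(-) BHL and 6.51, 7.19, 7.20, 7.23 and 7.32 in *BRAF*(-) AT. All 4 *BRAF*(+) BHL lay below all *BRAF*(-) BHL and 8 of 10 PTCs below all *BRAF*(-) AT, although the *BRAF*(-) AT mouse at 6.51 (mouse M_940, with a muscle mean of 10.08) stood apart from the other 4. Of the neighbours of *Thrb*, neither *Nr1d2* (0.06, adjusted p = 0.862) nor *Rarb* (-0.19, adjusted p = 0.266) passed in non-malignant thyroids.

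*Slc16a10*, the carrier, had a lowest log2 signal of 5.56, a median of 5.94 and a highest signal of 6.37 in PTC, and 5.49, 6.16 and 6.80 in BL. The *BRAF*(+) BHL mice had 5.52, 5.54, 5.55 and 6.28 and the *BRAF*(+) AT mice 6.07, 6.38, 6.39, 6.71 and 6.88, against 6.50, 6.95, 7.05 and 7.13 in *BRAF*(-) BHL and 6.34, 6.61, 7.12, 7.15 and 7.31 in *BRAF*(-) AT. Here 21 of 29 *BRAF*(+) mice lay below all 9 *BRAF*(-) mice, all 4 *BRAF*(+) BHL among them. In *BRAF*(-) AT the males were at 6.34 and 6.61 and the females at 7.12 and above. Of the 6 other thyroid hormone carriers measured (*Slco1c1*, *Slco4a1*, *Slc7a5*, *Slc7a8*, *Slc3a2* and *Slc17a4*), 0 passed the test in any comparison between the lesion and *BRAF* groups. Their median log2 fold change was 0.05 in *BRAF*(+) BHL and -0.10 in PTC.

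By mean signal, the 6 groups had nearly the same order for *Dio1*, *Thra* and *Slc16a10*: *BRAF*(-) AT and *BRAF*(-) BHL were highest, *BRAF*(+) AT next, then BL and PTC, with *BRAF*(+) BHL lowest. The ranges of neighbours in this order overlapped for all 6 genes. Most neighbouring means also lay closer than the larger of their SDs. The exceptions were *Slc16a10* in *BRAF*(+) AT and *BRAF*(-) AT (6.49 and 6.91, a difference of 0.42 with a larger SD of 0.41), *Thrb* in BL and *BRAF*(-) BHL (6.55 and 6.98, 0.43 with 0.38) and *Thra* in PTC and *BRAF*(+) AT (9.48 and 9.79, 0.31 with 0.19).

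Genes that act with the receptors and deiodinases were compared as lists, whose counts stand beside the shares of all probe sets that fell (3.64% in *BRAF*(+) BHL, 9.01% in PTC and 5.41% in BL) or rose (9.8% in PTC and 6.05% in BL). For lists of this length a count of 1 gene is near those shares. Of 9 measured receptor partners and coregulators, 1 fell in *BRAF*(+) BHL and 0 rose, with a median of -0.06. It was *Rxrg*, a retinoid X receptor gene (log2 fold change -1.14, SE 0.24, adjusted p = 0.00310), which fell also in PTC (-0.70, SE 0.19, adjusted p = 0.00940) and in BL (-0.67, SE 0.19, adjusted p = 0.0196). Its relatives *Rxra* (-0.18, adjusted p = 0.536) and *Rxrb* (-0.25, adjusted p = 0.346) did not pass in *BRAF*(+) BHL. In PTC *Hdac3*, a histone deacetylase of corepressor complexes, rose (0.25, adjusted p = 0.0294).

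Deiodinases need the machinery that inserts selenocysteine. Of 8 genes of selenoprotein synthesis and transport, 1 fell in *BRAF*(+) BHL, in PTC and in BL, and it was *Sephs2*, the enzyme that makes the selenium donor (-0.54 in *BRAF*(+) BHL, adjusted p = 0.00468; -0.50 in PTC, adjusted p = 0.000342; -0.44 in BL, adjusted p = 0.00260). In BL *Lrp8*, a receptor for selenoprotein P, rose (0.41, adjusted p = 0.0262). Of 4 genes known to add or remove ubiquitin on type 2 deiodinase, 3 rose in PTC, where 9.8% of all probe sets did, namely *Wsb1* (0.79, SE 0.18, adjusted p = 0.00220), *Usp33* (0.31, adjusted p = 0.0399) and *Marchf6* (0.28, adjusted p = 0.0274), and 0 passed in *BRAF*(+) BHL. Of 4 proteins that bind thyroid hormone, 1 fell in PTC, *Serpina7*, which encodes thyroxine-binding globulin (-0.25, adjusted p = 0.0404), and it fell in BL too (-0.32, adjusted p = 0.0131). Its log2 signal lay between 3.20 and 3.98 in all 38 mice, below the median signal of every array, so these are differences near the low end of the scale.

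Of 8 genes known from other rodent tissues to respond to thyroid hormone, 3 fell in *BRAF*(+) BHL and 5 in PTC, and 0 rose. *Thrsp*, a regulator of fat synthesis, had log2 fold changes of -2.22 in *BRAF*(+) BHL (adjusted p = 0.0371) and -1.61 in PTC (adjusted p = 0.0278), *Ucp3*, an uncoupling protein, -1.67 (adjusted p = 0.00245) and -1.11 (adjusted p = 0.00431), and *Gpd2*, the mitochondrial glycerol phosphate dehydrogenase, -0.97 (adjusted p = 0.0111) and -0.56 (adjusted p = 0.0360). In PTC *Nrgn* (-0.42, adjusted p = 0.00899) and *Klf9* (-0.39, adjusted p = 0.0473) also fell. The median of the list was -0.72 in *BRAF*(+) BHL, against 0.03 over all probe sets, and -0.41 in PTC, against -0.02. Fat also expresses *Thrsp*, *Gpd2* and *Ucp3*, and the fat markers fell in these same comparisons, as given above; their part in these decreases was not tested.

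**Figure D4:**
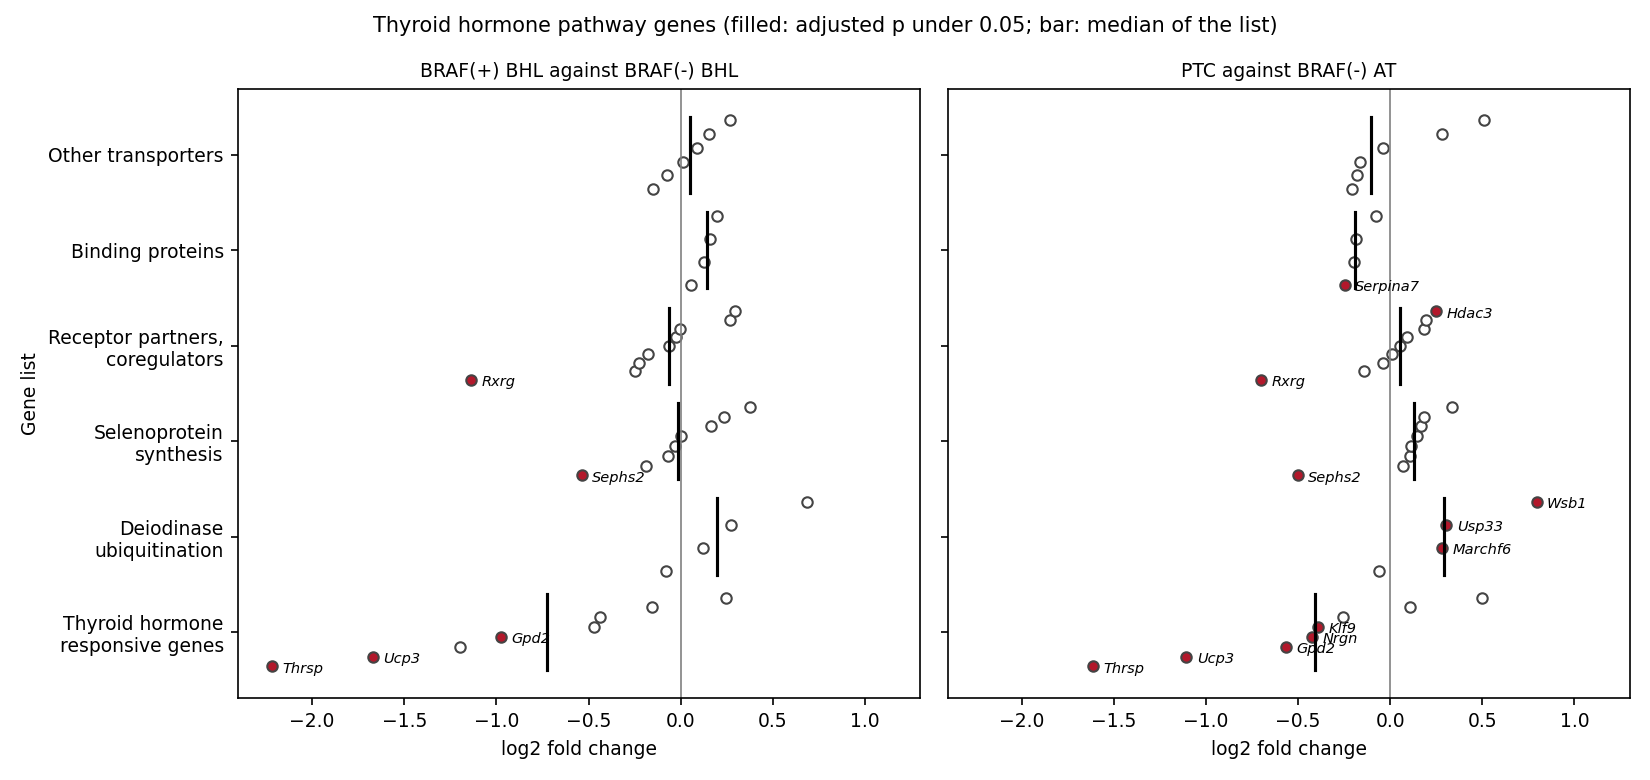
Log2 fold change (horizontal axes) of the measured genes of 6 lists (rows) in *BRAF*(+) against *BRAF*(-) BHL (left) and in PTC against *BRAF*(-) AT (right). Points are genes, filled and named where the adjusted p was under 0.05, and bars are list medians; *Thrsp*, *Ucp3* and *Gpd2* lie below 0 in both panels, *Rxrg* and *Sephs2* as well.

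*Dio1* differed by sex. With the 6 groups in the model, males had 2.43-fold more *Dio1* RNA than females (log2 fold change 1.28, SE 0.33, adjusted p = 0.0248), where 3.22% of all probe sets passed the test and 1.77% rose in males. The 9 males ranged from 10.18 to 11.62 and the 29 females from 6.77 to 11.35. Males were 2 each in PTC, BL and *BRAF*(-) AT and 1 in each other group. Their mean or single value was above the mean of the females in each of the 6 groups. Males and females were at 10.43 and 8.85 in PTC, 10.67 and 9.21 in BL and 11.57 and 11.10 in *BRAF*(-) AT. The single male and the mean of the females were at 10.18 and 7.54 in *BRAF*(+) BHL, 11.35 and 10.36 in *BRAF*(+) AT and 11.49 and 11.01 in *BRAF*(-) BHL. Males were younger (4 to 11 months, median 6, against 7 to 24 months, median 11, in females), and with age as a covariate the difference was 1.37 with an adjusted p of 0.0717. In PTC the 3 youngest mice (6 and 7 months) had the highest values: the 2 males were at 10.21 and 10.65 and a female was at 10.06, against 7.71 to 9.50 in the 7 older females, and sex, age and line cannot be told apart there. In the same fit 4 of 6 fibroblast genes were lower in males (list median -0.63), and their mean correlated with *Dio1* at -0.52 over the 38 mice (-0.51 after the group means were subtracted); the part of fibroblasts was not tested. The call was also lost without PTC mouse M_700 (adjusted p = 0.0704), BL mouse M_80 (adjusted p = 0.0533) or *BRAF*(+) BHL mouse M_958 (adjusted p = 0.106). None of the other 5 genes passed; *Thrb* had a log2 fold change of 0.31 (adjusted p = 0.173).

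Over the 38 mice, which share the group differences, *Thrb* and *Slc16a10* were the most alike of the 6 genes (Pearson r = 0.75, and 0.53 after the group means were subtracted), followed by *Slc16a10* and *Thra* (0.72 and 0.32) and *Dio1* and *Thrb* (0.72 and 0.53). *Dio1* and *Dio3* ran in opposite directions (-0.49 and -0.47). Among all named genes those most like *Dio1* were *D630045J12Rik* (r = 0.95, and 0.92 after the group means were subtracted), the carbonic anhydrase gene *Car4* (0.95 and 0.90), the aquaporin gene *Aqp6* (0.95 and 0.92), the phospholipase gene *Plcd4* (0.95 and 0.91) and *Slc5a8*, a carrier of monocarboxylates (0.95 and 0.90). Nearest to *Thrb* were *Iqgap2*, *Elovl7*, *Plcb4*, *Myh11* and *Fmn2* (r = 0.87 to 0.89), and nearest to *Slc16a10* were *Clic5*, *Megf9*, *Cyp2u1*, *Ak3* and *Hadh* (0.88 to 0.90). *Thra* was followed by *Pxmp4*, *Aqp11*, *Fastk*, *Ptdss2* and *Marchf2* (0.84 to 0.87). *Dio2* had no gene above 0.69 (*Gda*, then *Arrb1*, *Lox*, *Adgrd1* and *Aspg*). *Dio3* was nearest to *Pxdn*, *Lmna*, *Cavin3*, *Ctsk* and *Loxl3* (0.75 to 0.77).

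The marker lists of the tissue moved with some of the 6 genes from mouse to mouse. The mean of 9 follicular genes correlated with *Dio1* at 0.86 over the 38 mice and 0.82 after the group means were subtracted. Of these 9 genes, 5 fell in PTC, where 9.01% of all probe sets fell. Among the 5 were the iodide carrier *Slc5a5* (-1.31, adjusted p = 0.0191) and the oxidase *Duox2* (-0.90, adjusted p = 0.00420), while *Tg* did not pass. The brown adipocyte mean correlated with *Slc16a10* at 0.83 (0.66 after the group means were subtracted) and with *Dio1* at 0.76 (0.57). The mean of 6 fibroblast genes correlated with *Dio3* at 0.68 (0.66). Of the other marker lists, 2 of 3 C cell genes, 1 of 4 airway and 1 of 5 endothelial genes fell in PTC. Beside the share of 9.01%, a count of 1 gene is near what all probe sets gave. In the parathyroid, squamous, T cell and B cell lists 0 genes passed the test there. Their part in the values of the 6 genes was not tested. These correlations describe the 38 pieces and were given no test.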

How the data were processed

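RNA of 38 thyroid pieces was hybridised to GeneChip Mouse Gene 1.0 ST arrays, 1 per mouse. The deposited values are log2 signals of 35556 probe sets, made by the authors with RMA, whose software version is not given in the sources used here; 0 value columns lay outside these samples. Gene names came from the platform annotation (21789 probe sets with 1 symbol, 1621 with several, 12146 not listed), gene positions and promoters from RefSeq (GRCm38.p6). Of the 6 genes, 5 matched a promoter entry; *Thra* did not. Array medians lay between 6.00 and 6.15. Depth is not defined for arrays, so the number of mice limits the precision. Each p-value rests on a spread between mice that is pooled over all groups of the fit, with information shared across probe sets. It is not the spread of the groups compared alone, and the groups differed in spread. For *Dio1* the SD ran from 0.30 in *BRAF*(-) AT to 1.49 in BL.

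Models were fitted in R 4.3.3 with limma 3.58.1 (lmFit, eBayes) on all 35556 probe sets, and an adjusted p under 0.05 by the Benjamini-Hochberg method over all of them was taken as passing the test. The study's 3 factors (*BRAF* status, lesion type, sex) were used over the 18 non-malignant mice, with an interaction term in a further model, and 6 groups with sex over 38 mice. The study's flat filter (20% of mice or more lying 1.5-fold or more from the median) kept *Dio1*, *Thrb* and *Slc16a10* among 4388 probe sets; it would leave the other 3 genes untested and served as an alternative. Simulated data had 200 changed probe sets of 35556. Changes of 1 and 2 log2 units were found in 88% and 99% of cases in the non-malignant model and 51% and 87% for the interaction term. Against *BRAF*(-) AT it was 85% and 99% for PTC and 85% and 98% for BL. The noise was drawn independently for each probe set, with the same spread in every group. Tissue content shared by many genes, unequal group spreads and changes under 1 log2 unit were not simulated, so these rates do not cover them. Other alternatives were no sex term, age as a covariate, females only, arrays centred on their medians, an intensity trend with robust variance, mean muscle and white adipocyte signals as covariates, only both groups compared, and leaving out each mouse in turn; leaving out the mice of high muscle signal was added after seeing the data. Figures and correlations were made in Python 3.11.15 with matplotlib 3.10.9.

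The 6 genes and the gene lists were chosen with earlier results of these data known. Named besides the 6 genes are up to 4 genes of each list, the largest changes among those past the test, and the 5 genes most correlated with each of the 6. *Rxra*, *Rxrb*, *Tg*, *Rtl1*, *Nr1d1*, *Nr1d2* and *Rarb* are named beyond this rule, as relatives, neighbours or tissue marker, and *Klf9* as the fifth gene of its list, after their values were seen. The carriers *Slco1c1*, *Slco4a1*, *Slc7a8*, *Slc3a2* and *Slc17a4*, which passed in no comparison, are also named beyond it, to list the carriers measured.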

Additional observations from a re-analysis of the deposited data

Results flagged for a closer look

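In each group of 4 to 10 mice, the highest and the lowest signal of each of the 6 genes was set against the other mice by Dixon's ratio of gap to range. This marked 2 of 36 groups, where chance marks about 1 in 20.

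*Thrb* in *BRAF*(-) AT mouse M_940 had a log2 signal of 6.51, and the other 4 mice of the group lay between 7.19 and 7.32. The gap was 0.846 of the range, above the critical value of 0.71. This mouse had a mean of 10.08 over 12 skeletal muscle genes, and the part of that in its *Thrb* signal was not tested. Without it *Thrb* in BL against *BRAF*(-) AT passed the test (log2 fold change -0.60, adjusted p = 0.0497), against -0.48 and 0.0675 with it.

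*Slc16a10* in *BRAF*(+) BHL mouse M_958 had a log2 signal of 6.28, and the other 3 mice lay between 5.52 and 5.55. The gap was 0.949 of the range, above the critical value of 0.829. Mouse M_958 was the only male of the group and, at 4 months, its youngest, and its brown adipocyte mean was 9.51, against 5.94 to 6.22 in the other 3 mice. Sex, age and fat content cannot be told apart in a single mouse.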

How the results depend on the processing

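Values are log2 fold changes unless named otherwise. Of 525 values of the 6 genes under other settings than leaving out 1 mouse, 502 kept their sign and 457 kept both sign and side of the threshold. Of 1224 values without 1 mouse, 1192 and 1138 did. Both totals include the F values of the 6 groups, which are always positive. The flat filter and the intensity trend with robust variance leave a fold change as it is. In all these cases the sign could not change, so the counts of kept signs overstate stability. The cause of the changes of sign or threshold side was not tested. With the mean muscle and white adipocyte signals as covariates, passing was lost in non-malignant thyroids by *Dio1* (-0.43, adjusted p = 0.891), *Thrb* (-0.74, adjusted p = 0.229) and *Slc16a10* (-0.23, adjusted p = 0.855), in BHL by *Thra* (-0.51), *Thrb* (-0.58) and *Slc16a10* (-0.71), in PTC against *BRAF*(-) AT by *Thra* (-0.34) and *Thrb* (-0.49), in BL by *Dio1* (-1.45), *Thra* (-0.37) and *Slc16a10* (-0.43), in PTC against *BRAF*(+) AT by *Dio1* (-1.15), *Thra* (-0.25) and *Slc16a10* (-0.48), by sex by *Dio1* (1.14, adjusted p = 0.0796), and among the 6 groups by *Thra* (F = 4.38), *Thrb* (F = 2.36) and *Slc16a10* (F = 4.08). The sign changed for *Dio3* in AT (0.054) and, in *BRAF*(-) BHL against AT, for *Dio1* (-0.0049) and *Slc16a10* (-0.066). Without the 8 mice of a muscle mean above 7, a setting chosen after seeing the data, passing was lost in non-malignant thyroids by *Dio1* (-1.44) and *Slc16a10* (-0.79), in BHL by *Thrb* (-0.80), in PTC by *Dio1* (-1.55), in BL by *Dio1* (-1.11) and *Thra* (-0.36), in PTC against *BRAF*(+) AT by *Dio1* (-1.19), *Thra* (-0.30) and *Slc16a10* (-0.55), and by sex by *Dio1* (1.19). The sign changed for *Dio2* in non-malignant thyroids (-0.0039), *Dio3* in BL (-0.016), *Thra* in PTC against BL (-0.013) and, in *BRAF*(-) BHL, *Dio1* (-0.024) and *Thra* (0.14). In females only, passing was lost by *Thrb* in non-malignant thyroids (-0.63) and BHL (-0.71), *Thra* in BHL (-0.55), *Dio1* in BL (-1.89), *Dio1* (-1.51), *Thra* (-0.27) and *Slc16a10* (-0.54) in PTC against *BRAF*(+) AT, and *Thrb* among the 6 groups (F = 3.61). The sign changed for *Dio2* in non-malignant thyroids (-0.052), in BL (-0.063) and in *BRAF*(-) BHL (-0.25), and there for *Dio1* (-0.088) and *Slc16a10* (-0.36). With age as a covariate, passing was lost by *Dio1* in non-malignant thyroids (-1.46, adjusted p = 0.0696) and by sex (1.37), and by *Thra* in PTC against *BRAF*(+) AT (-0.30), and the sign changed for *Dio1* (-0.013) and *Thra* (0.00078) in *BRAF*(-) BHL and for *Thra* (-0.0021) and *Slc16a10* (-0.020) by sex. With both groups of a comparison alone in the fit, passing was lost by *Thra* in BHL (-0.62) and in PTC against *BRAF*(+) AT (-0.31) and by *Dio1* in BL (-1.58), and the sign changed for *Dio3* in AT (0.0016) and, in *BRAF*(-) BHL, *Dio1* (-0.088) and *Slc16a10* (-0.046). Without a sex term *Dio1* in PTC against *BRAF*(+) AT was lost (-1.39), and the sign changed for *Dio3* in AT (0.029) and *Dio1* in *BRAF*(-) BHL (-0.16). With arrays centred on their medians *Thrb* passed in BL (-0.52, adjusted p = 0.034) and *Dio3* changed sign there (-0.038). Over the probe sets of the flat filter the *Dio1* interaction passed (-2.41).

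Leaving out 1 mouse, *Dio1* in non-malignant thyroids ranged from -1.76 to -1.36 and was lost without *BRAF*(-) BHL mouse M_764 (adjusted p = 0.0507) or M_930 (adjusted p = 0.0554), *Slc16a10* ranged from -0.85 to -0.70 and was lost without *BRAF*(+) BHL mouse M_943 (adjusted p = 0.0501) or *BRAF*(-) BHL mouse M_930 (adjusted p = 0.0550), and *Thra* ranged from -0.39 to -0.30 and passed without *BRAF*(-) AT mouse M_771 (adjusted p = 0.0446). The *Dio1* interaction ranged from -2.83 to -1.99 and *Thrb* in BHL from -0.85 to -0.70. In BL *Dio1* ranged from -1.72 to -1.32 (lost without BL mouse M_360, M_414, M_528 or M_530 or *BRAF*(-) AT mouse M_940, M_956 or M_957), *Thrb* from -0.60 to -0.41 (passing without BL mouse M_416, M_649 or M_1005 or *BRAF*(-) AT mouse M_940) and *Dio3* from -0.038 to 0.056. In PTC against *BRAF*(+) AT *Dio1* ranged from -1.52 to -1.20 (passing only without PTC mouse M_347, M_700 or M_884 or *BRAF*(+) AT mouse M_1003), *Thra* from -0.35 to -0.26 (only without PTC mouse M_348 or M_884 or *BRAF*(+) AT mouse M_1003) and *Slc16a10* from -0.67 to -0.47 (only without PTC mouse M_358, M_359, M_364, M_415, M_700 or M_884 or *BRAF*(+) AT mouse M_1003). Signs changed within the ranges of *Dio2* (-0.24 to 0.10) and *Dio3* (-0.084 to 0.087) in AT, *Thra* in PTC against BL (-0.014 to 0.065), *Dio1* (-0.14 to 0.27), *Dio2* (-0.071 to 0.27), *Thra* (-0.10 to 0.077) and *Slc16a10* (-0.14 to 0.14) in *BRAF*(-) BHL, and *Thra* by sex (-0.0038 to 0.066). *Dio1* by sex ranged from 1.11 to 1.38. No call in PTC against *BRAF*(-) AT changed without any 1 mouse.

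Counts within the flat filter are out of 4388 probe sets and all others out of 35556, so a lower count there is not a lower share. The number of probe sets that passed in non-malignant thyroids was 1458, against 882 in females, 911 with age or without the mice of high muscle signal, 23 with the tissue covariates, 883 within the flat filter and 931 to 2050 without 1 mouse. In BHL it was 2353, against 424 with the tissue covariates, 1270 with both groups alone, 1061 within the flat filter and 1344 to 2195 without 1 mouse. In AT it was 91, against 18 to 53 with both groups alone, the tissue covariates or females only, 170 within the flat filter and 46 to 288 without 1 mouse, and in the interaction it was 10, against 31 in females, 26 within the flat filter and 9 to 87. In PTC against *BRAF*(-) AT it was 6686, against 1732 to 4074 in females, without the mice of high muscle signal, with the tissue covariates or within the flat filter, and in BL 4075, against 932 to 2567 in these and with both groups alone; without 1 mouse the counts were 3935 to 6572 and 1812 to 4648. In PTC against *BRAF*(+) AT it was 5309, against 1247 within the flat filter, 2651 in females and 2400 without the mice of high muscle signal. Without 1 mouse it was 2486 to 5701. By sex it was 1144, against 666 with age, 475 within the flat filter and 698 to 1438 without 1 mouse. Among the 6 groups it was 6420, against 1749 within the flat filter. There it was 2444 to 3907 in females, with the tissue covariates or without the mice of high muscle signal. In *BRAF*(-) BHL it was 0, against 1 without the mice of high muscle signal and up to 2 without 1 mouse.

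No paired analysis was possible because the mice of different groups share no numbers. Another probe set per gene gave no value, since each of the 6 genes had 1. Precision is limited by groups of 4 and 5 mice.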

Other observations

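Sex, apart from lesion and *BRAF* status, went with differences in a few genes around the thyroid hormone pathway. *Slc7a5*, the light chain of a carrier of large neutral amino acids and thyroid hormone, was 1.33 log2 units higher in males (SE 0.11, adjusted p = 1.05e-09). The 9 males ranged from 8.74 to 9.25 and the 29 females from 7.06 to 8.58, without overlap. It was the only 1 of 6 measured carriers that passed the test by sex, where 3.22% of all probe sets did. The iodide carrier gene *Slc5a5* was also higher in males (1.14, SE 0.28, adjusted p = 0.0141), as were the coactivator genes *Ncoa3* (0.33, SE 0.07, adjusted p = 0.00435) and *Ncoa2* (0.21, SE 0.06, adjusted p = 0.0498). *Dlk1* was lower in males (-1.27, SE 0.30, adjusted p = 0.0110), and so was *Selenop*, which encodes the selenium carrier of plasma (-0.22, SE 0.06, adjusted p = 0.04997). Males were younger than females in these samples (median 6 and 11 months). Of 6 fibroblast genes 4 were lower in males, among them *Lum* (-0.91, adjusted p = 0.000338) and *Col1a2* (-0.65, adjusted p = 0.00830), and their part in the differences above was not tested.

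Macrophage genes were higher in PTC and BL than in *BRAF*(-) AT. Of 7 such genes 6 rose in PTC and 3 in BL, where 9.8% and 6.05% of all probe sets rose. *Mrc1* was at 1.15 (adjusted p = 0.00371) in PTC and 0.96 (adjusted p = 0.0220) in BL. The list median was 0.91 in PTC and 0.70 in BL. It was 0.66 in *BRAF*(+) against *BRAF*(-) AT, where 0 of the 7 genes passed the test. In PTC against *BRAF*(+) AT 0 of these genes passed, with a median of 0.24. Over the 38 mice their mean signal correlated with *Thrb* at -0.69 and with *Dio2* at 0.42, and after the group means were subtracted at -0.52 and 0.31. Their part in the values of these genes was not tested.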
